A study of Mus musculus with 28 samples.

Results

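The comparison described here set RNA from CD4+ T cells exposed to interleukin-21 (IL-21) for 0.5 h beside RNA from the same kind of cells given no cytokine. It rests on 2 of the 28 mouse samples of the series, 1 library on each side, and the IL-2 library at 0.5 h and the later IL-21 libraries are used only to place those 2. All libraries came from spleen T cells of wild-type C57BL/6 mice. Before the cytokine step every culture, the control included, had been activated through CD3 and CD28 for 3 days (plate-coated anti-CD3 at 2 µg/ml, anti-CD28 at 1 µg/ml) and rested overnight, so the starting point was a rested T cell blast and not a naive cell. The labels give the cytokine doses for chromatin work only, and no dose is attached to the RNA values. The control has no time of its own, which means that 0.5 h of extra culture and handling cannot be told apart from the cytokine. No label says that libraries came from separate mice or cultures, and since each side is a single library, no replicate spread stands behind any difference and p-values are left out.

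The depth was close to equal, with 34.4 M reads in the control and 34.3 M in the IL-21 library. Levels are the deposited RPKM, the reads per kilobase of transcript scaled to library size, and 1 read in a transcript of 1 kb was worth 0.0291 RPKM in both. A difference is log2(RPKM + 1) with IL-21 minus that of the control, over 11047 genes that reached 1 RPKM in at least 1 of the 9 RNA libraries, and a gene was counted at 2-fold, a difference of 1 on that scale. Beside a ratio of RPKM values stands its exact 95% interval given the 2 read counts, which covers counting error only.

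IL-21 is made mainly by follicular helper and Th17 cells. Its receptor pairs IL-21R with the common gamma chain that is shared with the IL-2 receptor, and the Janus kinases JAK1 and JAK3 bound to them phosphorylate chiefly STAT3, with other STATs such as STAT5 to a lesser degree. Phosphorylated STAT dimers enter the nucleus within minutes, so that 0.5 h catches the first wave of transcription, in which feedback inhibitors of the SOCS family, immediate early transcription factors and cytokines are typical members. IL-21 is known for its part in B cell help, in Th17 and follicular helper cells and in IL-10 production by T cells.

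The named components of this route were present before IL-21 was added. In the control the IL-21 receptor gene Il21r stood at 66.4 RPKM and the common gamma chain Il2rg at 322 RPKM. The kinases Jak1 and Jak3 stood at 107 and 81.1 RPKM, and Stat3, Stat5a and Stat5b at 66.3, 35.0 and 45.1 RPKM. After 0.5 h of IL-21 none of the 11 JAK and STAT genes tested differed by 2-fold, and their median difference was -0.05, the same as that of all genes. Stat3 was at 61.1 RPKM (difference -0.12) and Jak1 at 109 RPKM (0.03). Il21r itself stood at 100.05 RPKM, a ratio of 1.51 (1.46 to 1.56) that does not reach 2-fold, and the other 9 tested receptors of the common gamma chain and gp130 families lay between -0.21 (Il27ra) and 0.17 (Il7r). Il2ra, the IL-2 receptor alpha chain in the title of the series, was at 78.5 RPKM without cytokine and 81.0 RPKM with IL-21, and the 7 tested genes of its neighbourhood, Il2ra included, lay between -0.14 and 0.05.

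The markers fitted the label. The 12 CD4 T cell markers summed to 2649 RPKM in the control and 2439 RPKM with IL-21, all 12 slightly lower with IL-21 at a median of -0.13, while 2 CD8 markers summed to 9.73 and 8.19 RPKM. Of the 11 B cell markers 10 passed the filter, and they summed to 65.6 and 60.3 RPKM. The 8 NK cell markers summed to 204 and 214 RPKM, of which the granzyme Gzma, also made by activated T cells, gave 191 and 200.3 RPKM. The 10 macrophage markers summed to 9.35 and 8.27 RPKM, the 7 dendritic cell markers to 2.28 and 1.90 RPKM with 2 of them at 0 in both libraries, and the 7 neutrophil markers to 0.336 and 0.362 RPKM with 4 at 0 in both. The 8 erythroid and platelet markers, which include the near-identical beta globin genes, summed to 4.60 and 2.12 RPKM, and none of the 3 that passed the filter reached 2-fold. In bulk RNA, fewer cells of a type and less RNA per cell cannot be told apart.

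After 0.5 h 36 genes (0.326% of those tested) stood at least 2-fold higher with IL-21 and 6 (0.0543%) at least 2-fold lower. With a pseudocount of 0.1 RPKM in place of 1 these counts were 62 and 18, and with 5 RPKM they were 18 and 3. Most genes hardly moved: the median difference was -0.05, the 5th and 95th percentiles were -0.28 and 0.31, and 99% of genes lay below 0.63. At a 1.5-fold limit the counts were 124 and 43. All 36 and all 6 had counting intervals that exclude a ratio of 1. The genes were chosen by the same read counts, which favours that result. The median control level of the higher genes was 5.36 RPKM against 9.56 RPKM over all genes, and 22 of the 36 (61.1%) were under 10 RPKM in the control against 51.6% of all genes. The 6 lower genes had a median control level of 33.9 RPKM. The higher genes closest to the limit on its inner side were Gm17066 (difference 1.06), Cebpb (1.05) and Lta (1.05). On its outer side lay the interferon-inducible GTPase gene Gm12250 (0.99), Socs2 (0.98) and the AP-1 factor Junb (0.96), the last from 257 to 503 RPKM. Among lower genes Rgs16 (-1.18), Cxcr4 (-1.16) and Angptl4 (-1.13) were just inside, and Btg2 (-0.96), Tgif1 (-0.89) and Tsc22d3 (-0.88) just outside.

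**Figure D1:**
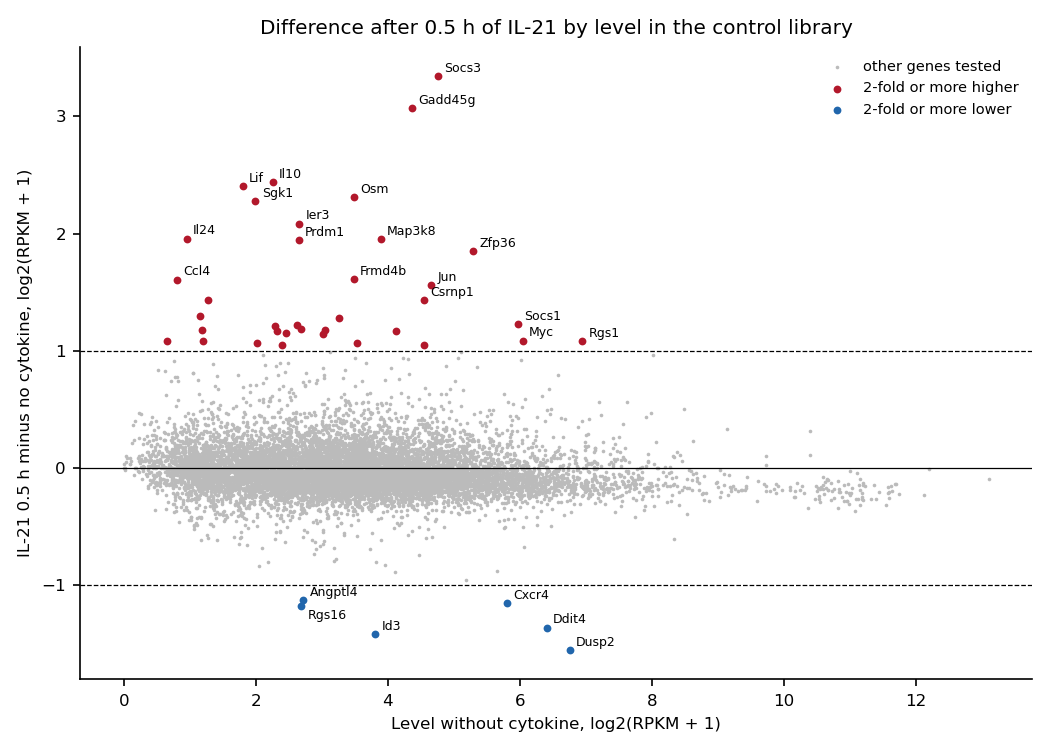
Difference between the IL-21 library at 0.5 h and the control (vertical axis, log2(RPKM + 1)) against the level in the control (horizontal axis, same scale), 1 point per gene for 11047 genes; dashed lines mark 2-fold. Socs3 at 3.35 and Gadd45g at 3.07 stand above all others, and the 6 lower genes reach no further than -1.56.

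The largest difference of all was in feedback inhibition. Socs3, which binds gp130-type receptors and JAKs and limits STAT3 signalling, stood at 26.1 RPKM in the control and 275 RPKM with IL-21, a ratio of 10.5 (10.1 to 10.98). The IL-2 library at the same time held 153 RPKM, between those 2 values. Socs1, an inhibitor of JAKs induced by many cytokines, stood at 62.0 RPKM without cytokine, 147 RPKM with IL-21 and 250.3 RPKM with IL-2. Its ratio to the control was 2.37 (2.26 to 2.48), so that here IL-2 gave the higher level of the 2 cytokines. Socs2 (7.73 and 16.3 RPKM, difference 0.98) lay just under the limit, and Cish, a STAT5 target that dampens IL-2 receptor signalling, went from 149 to 203 RPKM (0.45) with 336 RPKM under IL-2. The remaining members, Socs4, Socs5, Socs6 and Socs7, lay between -0.10 and 0.00. In all 2 of 8 SOCS family genes were called, both higher, beside 0.326% of all genes. None of 10 phosphatase and PIAS genes that restrain the same route was called, and none of the 3 PIM kinases; Pim1, a survival kinase downstream of STATs, went from 196 to 290.2 RPKM (0.56), and Pim3 from 5.82 to 3.65 RPKM (-0.55).

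Upstream sequence was searched for the letters TTCNNNGAA, to which STAT dimers can bind, on both strands of the 250 bases before each RefSeq start site (assembly GRCm38.p6). Windows were at hand for 24 of the 36 higher genes and 8866 of the 11047 tested genes. The letters occurred in 5 of those 24 genes (20.8%) and in 652 of the 8866 (7.35%). Some genes have several windows. Counted by window, 6 of 36 windows of the higher genes (16.7%) and 7.02% of all 32851 windows held the letters. Shares of all windows include genes that were not tested, while shares by gene cover tested genes only. The stricter form TTCCNGGAA, a subset of the first, occurred in 1 of the 24 (4.17%) and in 1.32% of tested genes. The AP-1 letters TGANTCA were in 5 of 24 (20.8%) against 5.14% by gene and in 13.9% against 6.75% by window, the CArG box (by its name) in 1 (4.17%) against 1.39%, and the cyclic AMP element TGACGTCA in none against 3.25%. None of the 5 lower genes with a window held any of them. A match of letters is a description of the window and is not evidence of binding. All 5 called genes with the STAT letters in a window are printed here. Each window is read 5′ to 3′ toward its start site, and the capitals mark the STAT letters. For Sbno2 the window with the strict form is shown.
Socs3, chr11:117969367-117969616, minus strand: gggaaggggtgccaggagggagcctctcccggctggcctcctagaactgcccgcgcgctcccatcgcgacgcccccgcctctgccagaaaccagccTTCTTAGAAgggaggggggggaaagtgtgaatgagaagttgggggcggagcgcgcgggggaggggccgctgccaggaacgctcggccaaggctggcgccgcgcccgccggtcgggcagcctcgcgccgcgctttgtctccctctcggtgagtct
Sgk1, chr10:21881934-21882183, plus strand: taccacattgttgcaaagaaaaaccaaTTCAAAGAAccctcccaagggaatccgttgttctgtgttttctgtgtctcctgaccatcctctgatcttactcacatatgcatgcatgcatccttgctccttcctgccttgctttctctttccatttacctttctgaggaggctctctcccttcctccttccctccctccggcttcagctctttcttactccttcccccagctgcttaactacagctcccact
Zfp36, chr7:28379229-28379478, minus strand: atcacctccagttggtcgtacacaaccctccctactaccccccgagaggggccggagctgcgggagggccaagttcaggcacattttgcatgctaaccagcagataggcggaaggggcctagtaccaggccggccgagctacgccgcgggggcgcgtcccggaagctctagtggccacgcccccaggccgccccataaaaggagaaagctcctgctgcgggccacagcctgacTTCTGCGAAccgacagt
Sbno2, chr10:80101188-80101437, minus strand: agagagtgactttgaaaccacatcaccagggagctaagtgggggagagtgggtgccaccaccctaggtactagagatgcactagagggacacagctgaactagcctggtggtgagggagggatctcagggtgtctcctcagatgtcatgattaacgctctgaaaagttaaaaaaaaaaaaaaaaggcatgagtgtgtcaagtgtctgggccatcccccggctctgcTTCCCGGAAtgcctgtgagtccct
Lta, chr17:35205352-35205601, minus strand: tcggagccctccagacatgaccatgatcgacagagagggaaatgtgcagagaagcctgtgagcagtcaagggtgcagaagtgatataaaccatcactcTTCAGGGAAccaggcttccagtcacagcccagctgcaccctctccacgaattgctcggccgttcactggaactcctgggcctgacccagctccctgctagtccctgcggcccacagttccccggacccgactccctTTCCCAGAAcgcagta
In Socs3 the letters begin 154 bases before the start site. Sgk1 has 6 windows, and the letters occurred only in the window printed, where they begin 223 bases before its start. Windows were not matched to the transcript whose level was measured. In Zfp36 and in this Sbno2 window they begin 17 and 24 bases before the start. Lta has 2 matches, and the one farther from the start begins 152 bases before it.

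Of the cytokine genes 7 of 24 tested were called, all higher, and the list had a median of 0.35. Over all genes 0.326% were higher and the median was -0.05. The list was chosen with earlier results of these data known. Il10, the anti-inflammatory cytokine for which IL-21 is known as an inducer, stood at 3.79 RPKM in the control, 25.03 RPKM with IL-21 and 8.83 RPKM with IL-2. Its ratio to the control was 6.61 (5.62 to 7.81) and to IL-2 2.84 (2.51 to 3.21), the highest level being that with IL-21. The pair of gp130 cytokines Lif and Osm, direct neighbours on chromosome 11, behaved differently between the cytokines. Lif, leukemia inhibitory factor, stood at 2.48, 17.5 and 58.5 RPKM in the control, IL-21 and IL-2 libraries. Osm, oncostatin M, stood at 10.2, 54.5 and 69.3 RPKM in the same order. For both the IL-21 level was far above the control (7.05-fold and 5.36-fold) and below that with IL-2. Il24, an IL-10 family cytokine separated from Il10 by 2 genes on chromosome 1, stood at 0.94, 6.53 and 11.03 RPKM; only 36 reads gave the control value, and the ratio of 6.95 has an interval of 4.89 to 10.2.

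The other called cytokines were nearer to the limit. Tnfsf14 (LIGHT), a TNF family ligand, went from 7.09 to 16.9 RPKM, with 10.8 RPKM under IL-2. Csf2, which encodes GM-CSF, went from 1.30 to 3.86 RPKM, with 5.45 RPKM under IL-2, and rests on 46 reads in the control. Lta, lymphotoxin alpha, went from 22.4 to 47.3 RPKM, a ratio of 2.11 (1.96 to 2.28), while the IL-2 library held 194 RPKM. Below the limit were Ifng (0.70 to 2.196 RPKM, 0.91) and Il21 itself (14.6 to 25.2 RPKM, 0.74), the latter at 14.9 RPKM under IL-2. Tnf, beside Lta in the genome, was level with the control at 10.9 and 11.3 RPKM, against 44.8 RPKM with IL-2. Il2 was low in all 3 early libraries (0.56, 0.40 and 0.25 RPKM). Among 18 chemokine and receptor genes Ccl4, a chemokine made by activated T cells, was called higher, beside 0.326% of all genes. It went from 0.75 RPKM (17 reads) to 4.33 RPKM, a ratio of 5.77 (3.43 to 10.3). Ccl3, a related chemokine, stood at 0.77 and 1.95 RPKM (0.74) and did not reach 2-fold.

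Regulators of T cell fate were represented by 3 of 22 tested genes, beside 0.326% of all genes called higher. Prdm1, which encodes BLIMP-1, a repressor that drives plasma cell and effector T cell programmes and supports Il10, stood at 5.29 RPKM in the control, 23.2 RPKM with IL-21 and 12.7 RPKM with IL-2. The ratio to the control was 4.38 (4.08 to 4.71). Its counterpart Bcl6, the follicular helper factor that is mutually repressive with Prdm1, was at 4.14 RPKM in the control, 2.82 RPKM with IL-21 and 3.20 RPKM with IL-2, a difference of -0.43 that is no call. Hlx, a homeobox factor of Th1 cells, went from 1.42 to 5.52 RPKM, a ratio of 3.88 (3.13 to 4.86). Ahr, the aryl hydrocarbon receptor active in Th17 and Tr1 cells, went from 1.27 to 4.13 RPKM. The AHR target Tiparp, a mono-ADP-ribosyltransferase, went from 4.00 to 10.2 RPKM, with 3.61 RPKM under IL-2. Below the limit lay Batf (94.1 to 164 RPKM, 0.79), Nfil3 (0.63), Tbx21 (0.55), Irf4 (87.9 to 125 RPKM, 0.50) and Maf (54.9 to 69.0 RPKM, 0.33), and Gata3 lay on the other side (55.3 to 40.6 RPKM, -0.44).

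Immediate early transcription factors had few calls, on a share of 0.326% called higher over all genes. Of 16 AP-1 and BATF genes 2 were called: Jun, from 24.2 to 73.5 RPKM with a ratio of 3.03 (2.90 to 3.17), and Fosl2, from 8.55 to 22.2 RPKM. In the IL-2 library they stood at 39.0 and 15.7 RPKM, lower than with IL-21. The EGR genes, a textbook immediate early family downstream of ERK, had no call. Egr1 stood at 5.01 RPKM in the control, 4.95 RPKM with IL-21 and 43.1 RPKM with IL-2, and Egr2 at 2.64, 2.68 and 8.62 RPKM. Of 15 EGR, NR4A and IER genes the only call was Ier3, an early gene linked to survival under stress, from 5.31 to 25.8 RPKM (ratio 4.85, 4.16 to 5.68). Ier2 (50.4 to 36.4 RPKM, -0.46) and Ier5l (3.27 to 1.64 RPKM, -0.69) lay below 0. In the MYC network 1 of 11 genes was called, Myc itself, from 65.1 to 139 RPKM with IL-21 and 269 RPKM with IL-2. Cebpb, a bZIP factor of acute phase responses, went from 4.27 to 9.94 RPKM and Nfkbiz, the nuclear IκB protein of Th17 cells, from 7.30 to 17.7 RPKM. Sbno2, a transcriptional coregulator described as an IL-10 and STAT3 target, went from 16.5 to 38.4 RPKM and stood at 19.7 RPKM with IL-2.

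Other called genes encode signalling and RNA decay proteins. Gadd45g, a stress sensor that feeds into p38 and JNK signalling and promotes Th1 cytokines, stood at 19.6 RPKM in the control, 172 RPKM with IL-21 and 96.4 RPKM with IL-2. Its ratio to the control was 8.79 (8.14 to 9.50) and its difference of 3.07 came next after that of Socs3, while Gadd45b (34.3 to 54.8 RPKM, 0.66) did not reach 2-fold and Gadd45a was level (2.28 and 2.21 RPKM). Sgk1, a kinase that promotes Th17 differentiation, stood at 2.99, 18.3 and 5.87 RPKM in the control, IL-21 and IL-2 libraries, a ratio to the control of 6.12 (5.36 to 7.02). Map3k8 (TPL2), a kinase upstream of ERK, stood at 13.9, 56.7 and 37.7 RPKM. Zfp36, which encodes tristetraprolin, a protein that binds AU-rich elements and destabilises cytokine mRNAs, stood at 38.1, 140.4 and 37.9 RPKM. The Zfp36 ratio to the control was 3.68 (3.52 to 3.86), and the IL-2 library was level with the control. It was the only call among 14 RNA decay genes, beside 0.326% of all genes called higher. The other ZFP36 and roquin members of that list lay between 0.11 (Zfp36l2) and 0.45 (Rc3h2).

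Further higher genes had varied roles. Rgs1, a regulator of G protein signalling, was the highest of the 36 in the control, at 122 RPKM, and stood at 259 RPKM with IL-21 and 262 RPKM with IL-2. Csrnp1, an early nuclear protein, stood at 22.4, 62.1 and 61.7 RPKM in the control, IL-21 and IL-2 libraries, and Frmd4b at 10.2, 33.1 and 35.3 RPKM, so that both cytokines gave much the same levels. Hk2, the inducible hexokinase, went from 5.16 to 13.3 RPKM. It was the only call among 18 glycolysis genes, beside 0.326% of all genes called higher. The median of those 18 was -0.12. The lipid transporter Mfsd2a went from 1.22 to 4.44 RPKM and the adenosine receptor Adora2b from 0.57 to 2.32 RPKM, the latter on 36 reads in the control. Rtp4, an interferon-inducible gene, went from 4.49 to 11.2 RPKM. Tha1, a threonine aldolase gene, went from 3.91 to 10.3 RPKM and stood at 3.87 RPKM with IL-2. No protein-coding gene lies between Tha1 and Socs3 on chromosome 11, and both are on the same strand. The distance between them was not used here. The last 3, Gt(ROSA)26Sor, Gm13157 and Gm17066, are taken up with the comparison to IL-2. Of the 36 genes 5 have several transcripts in the files. In 4 of those every transcript passed 2-fold, and the exception was Gt(ROSA)26Sor, whose transcripts ranged from -0.11 to 1.19.

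**Figure D2:**
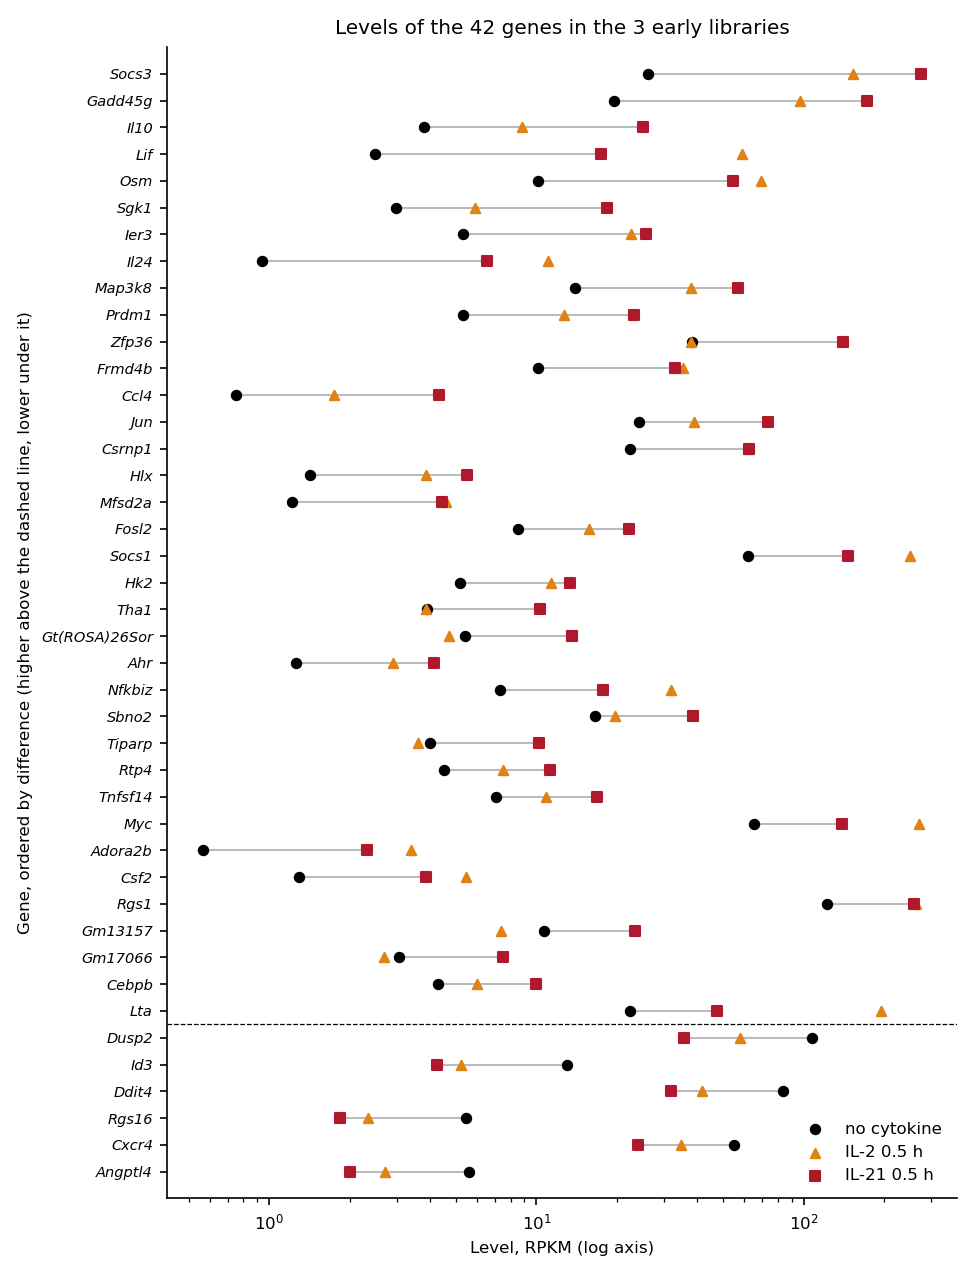
Level in RPKM (log axis) of the 36 higher and 6 lower genes in the control (circles), IL-2 0.5 h (triangles) and IL-21 0.5 h (squares) libraries, 1 library per symbol, joined by a line from control to IL-21. The IL-2 symbol lies between the other symbols for Socs3 and Gadd45g, on the control for Zfp36 and Tha1, and beyond IL-21 for Lif, Socs1, Myc and Lta.

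The 6 lower genes were Dusp2, Id3, Ddit4, Rgs16, Cxcr4 and Angptl4. Dusp2, a nuclear phosphatase of ERK and p38, stood at 107 RPKM in the control, 35.8 RPKM with IL-21 and 57.5 RPKM with IL-2, a ratio to the control of 0.333 (0.316 to 0.35). Of 16 DUSP and Sprouty genes it was the only call, beside 0.0543% of all genes called lower. Dusp4 (14.6 to 7.75 RPKM, -0.83) and Dusp10 (24.4 to 15.8 RPKM, -0.59) came next to it. Id3, an inhibitor of E protein transcription factors, stood at 13.0, 4.25 and 5.23 RPKM in the control, IL-21 and IL-2 libraries. Its relative Id1 differed between the cytokines, at 0.54 RPKM in the control (17 reads), 1.73 RPKM with IL-21 and 20.1 RPKM with IL-2. Ddit4 (REDD1), an inhibitor of mTORC1, stood at 83.9, 31.9 and 41.7 RPKM, a ratio of 0.381 (0.361 to 0.402). Cxcr4, the receptor for CXCL12, stood at 54.7, 24.0 and 34.8 RPKM. Rgs16, like Rgs1 a regulator of G protein signalling, stood at 5.46, 1.85 and 2.35 RPKM and Angptl4, a secreted inhibitor of lipoprotein lipase, at 5.60, 2.01 and 2.71 RPKM. For each of the 6 the IL-2 level lay between the others. The genes were chosen as high in the control and low with IL-21, which favours that order, and no gene of the 6 differed by 2-fold between the cytokines.

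Genes just short of the limit on this side belonged to related lists. Among 23 FOXO and quiescence genes Ddit4 was the only call, beside 0.0543% of all genes called lower. Next came Tsc22d3 (GILZ, 49.5 to 26.4 RPKM), the quiescence factor Klf2 (21.29 to 12.3 RPKM, -0.75) and Arrdc3 (6.89 to 3.97 RPKM, -0.67). The other quiescence genes were level, with Il7r at 0.17 and Foxo1 at 0.06, so that the list had a median of -0.04. The TGF-beta list had no call among 19 genes, and its lowest members were the corepressors Tgif1 (16.2 to 8.32 RPKM) and Tgif2 (-0.58) and the inhibitory Smad7 (12.3 to 7.22 RPKM, -0.69). The antiproliferative gene Btg2 stood at 35.5 RPKM in the control, 17.8 RPKM with IL-21 and 18.8 RPKM with IL-2. In the BCL2 family of 15 no gene was called, and the BH3-only genes Pmaip1 (0.75) and Bbc3 (-0.57) lay at its ends.

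A pair of lists of genes described as bound or induced by STATs in T cells were read side by side. Of 25 STAT3 targets 5 were higher by 2-fold (Socs3, Il10, Il24, Prdm1 and Ahr) with a median of 0.46, and of 24 STAT5 targets 8 were higher (Socs3, Gadd45g, Lif, Osm, Il24, Socs1, Myc and Lta) with a median of 0.25. None was lower on either list. The lists share 4 genes, and together they hold 11 of the 36 higher genes. Over all genes 0.326% were higher and the median was -0.05. The lists were chosen with results of these data known, so their counts are not independent evidence. Relative to IL-2 at the same time the STAT3 list had a median of 0.22 and the STAT5 list of -0.32, beside -0.08 over all genes.

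Interferon-stimulated genes leaned upward with hardly a call. Of 32 listed genes tested, 27 lay above 0 with a median of 0.21. The only listed gene past 2-fold was Socs1, also a general cytokine target, beside 0.326% of all genes called higher. Rtp4, an interferon-inducible gene not on the list, was called too (1.15). The interferon-inducible GTPase gene Gm12250 lay just under the limit (0.99). The immunity GTPase Iigp1 went from 32.6 to 63.4 RPKM (0.94) against 31.4 RPKM with IL-2, and Ifit1 from 4.12 to 7.17 RPKM (0.67) against 4.94 RPKM with IL-2. Isg15 lay at 0.59, and Gbp6, Gbp4 and Gbp5 at 0.44, 0.43 and 0.42. Isg20 (-0.23) and Cxcl10 (-0.31) lay below 0. Among interferon regulatory factors Irf8 (27.1 to 42.5 RPKM, 0.63) and Irf1 (252 to 349 RPKM, 0.47) led a list of 11 with no call.

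Lists of growth and housekeeping functions were flat. No gene was called among 23 ribosome biogenesis, 25 cell cycle, 20 cholesterol synthesis, 17 heat shock and 15 housekeeping genes, with medians between -0.13 and -0.08. The 24 costimulatory and checkpoint receptors also had no call, and their highest were the activation marker Cd69 (63.6 to 121 RPKM, 0.92) and Slamf1 (17.0 to 29.6 RPKM, 0.76). All 30 cytosolic ribosomal protein genes lay slightly below 0, at a median of -0.21, with Rps14 lowest from 2164 to 1673 RPKM. Short transcripts as a whole lay lower too: the median difference was -0.12 in the 2763 genes with the shortest transcripts (221 to 1654 bases) and 0.00 in the 2761 with the longest (4008 to 83437 bases). The part of transcript length in these small shifts was not tested.

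**Figure D3:**
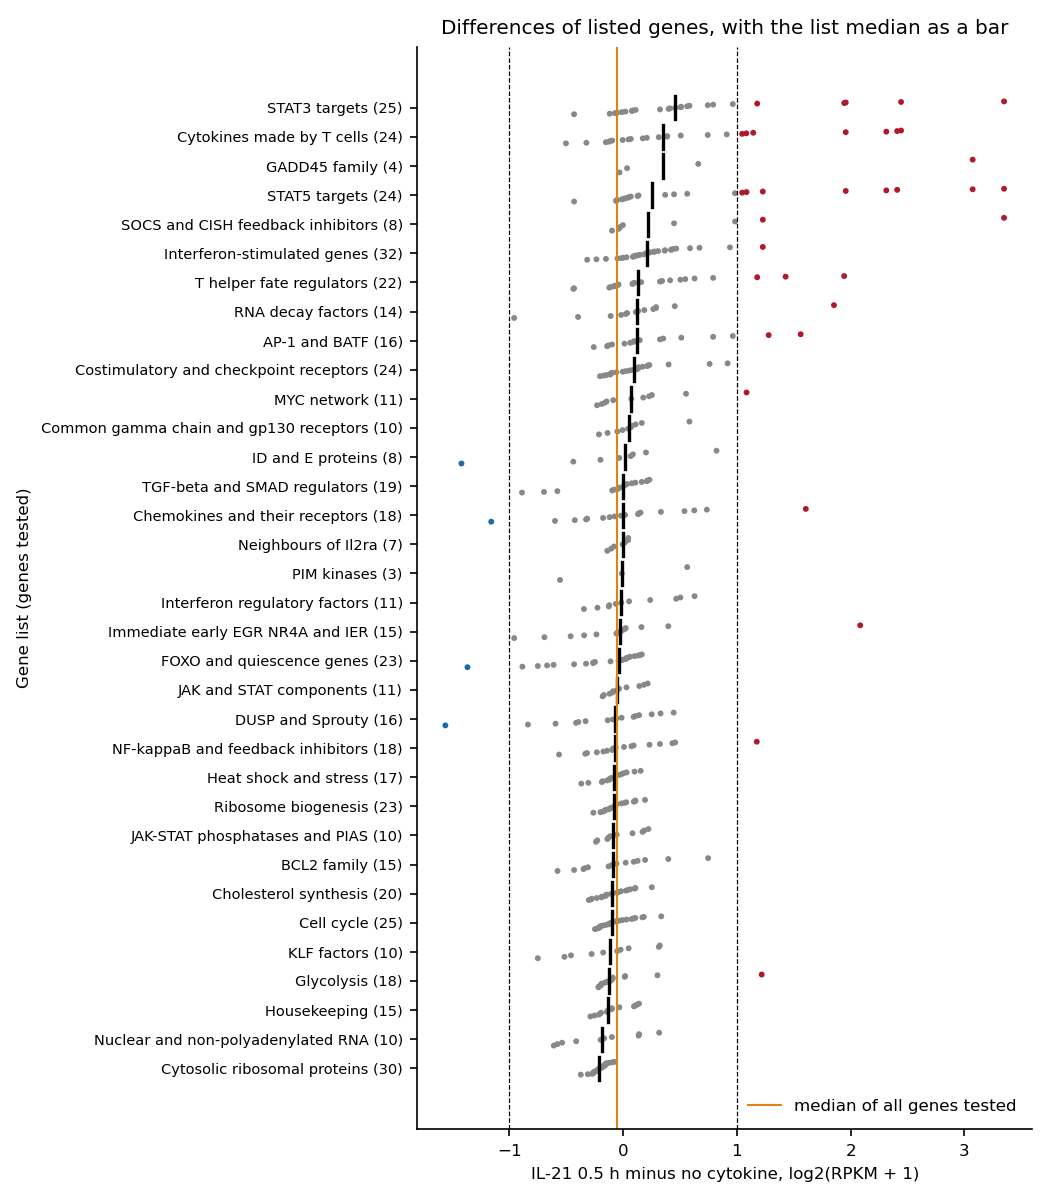
Difference between IL-21 at 0.5 h and the control (horizontal axis, log2(RPKM + 1)) for each member of each gene list, ordered by list median (black bars), with the number tested in brackets; dashed lines mark 2-fold and the orange line the median of all genes. STAT3 targets (median 0.46) and cytokines (0.35) lie at the top and ribosomal proteins (-0.21) at the bottom.

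Later IL-21 libraries show how long the early levels were held. They share the control with the comparison above, and genes chosen as high at 0.5 h tend to be lower in any other library, so the counts are a description. Of the 36 higher genes 25 had their highest IL-21 or control level at 0.5 h, 6 at 2 h, 2 at 4 h and 3 at 24 h. Their median ratio to the 0.5 h level was 0.57 at 2 h, 0.43 at 4 h and 0.46 at 24 h, where genes overall stood at 0.991, 1.03 and 1.02. At 2, 4 and 24 h 8, 11 and 9 of the 36 were at or below the control.

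Single genes followed different courses. Socs3 stayed far above the control, at 235, 311 and 331 RPKM at 2, 4 and 24 h. Sgk1 stood at 12.7, 17.6 and 30.8 RPKM at those times, and Sbno2 at 80.7, 77.0 and 64.8 RPKM, above its early 38.4 RPKM in each. Hlx (12.3, 15.2 and 10.98 RPKM) and Tha1 (14.9, 16.3 and 15.2 RPKM) were also above their 0.5 h levels, and Ccl4 was highest at 24 h with 17.0 RPKM. Others were highest at 0.5 h: Il10 stood at 13.9, 10.5 and 7.90 RPKM, Prdm1 at 10.4, 8.28 and 7.40 RPKM, Osm at 18.4, 16.2 and 18.4 RPKM and Lif at 5.42, 3.17 and 3.20 RPKM. Gadd45g stood at 56.4, 78.2 and 76.2 RPKM, below the early 172 RPKM but above the control. Zfp36 stood at 33.1 RPKM at 2 h, somewhat below its control level of 38.1 RPKM, and at 62.3 and 75.8 RPKM later. Myc was at 63.3, 35.8 and 33.4 RPKM, below its control level of 65.1 RPKM. Il21r, not called at 0.5 h, stood at 232, 226 and 194 RPKM. Each of the 6 lower genes was at or below the control in all 3 later libraries. They were chosen as high in that same control library, which favours this order. Cxcr4 stood at 15.4, 16.6 and 15.3 RPKM, while Ddit4 stood at 77.0 RPKM at 4 h and stood at 52.6 RPKM at 24 h.

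**Figure D4:**
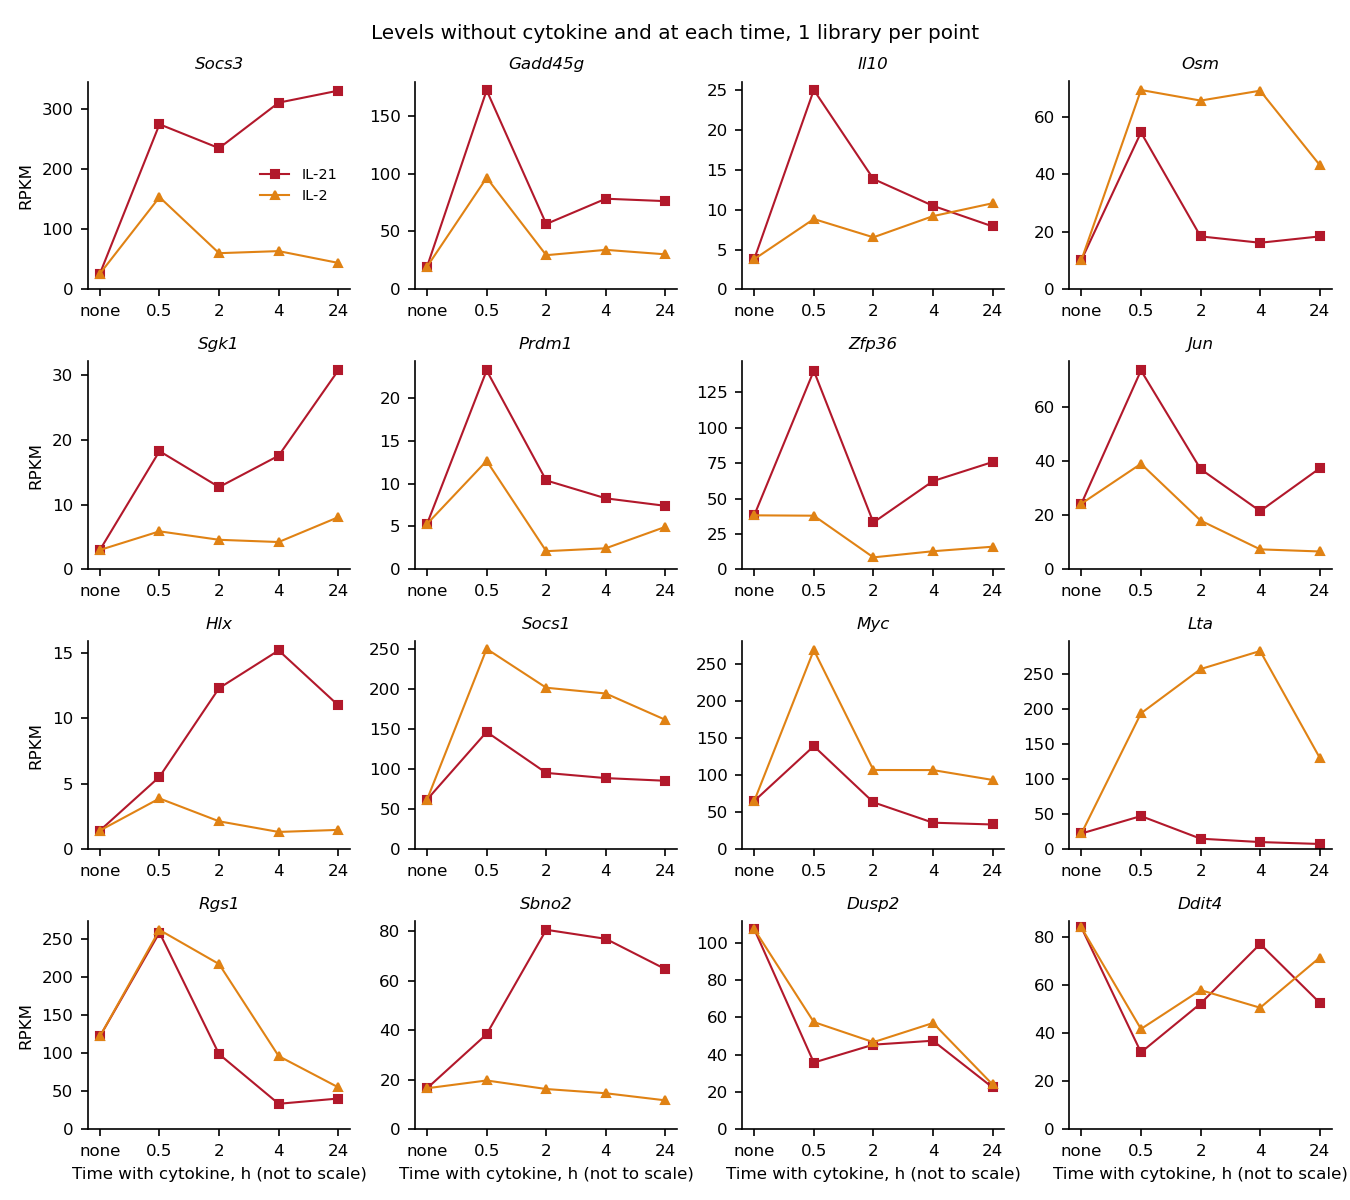
Level in RPKM (vertical axis, from 0) of 16 genes without cytokine and at 0.5, 2, 4 and 24 h of IL-21 (squares) or IL-2 (triangles), 1 library per point, times not to scale. Socs3 and Sgk1 stay high with IL-21, Il10, Osm and Prdm1 are highest at 0.5 h, and Lta after 0.5 h stands at 194 RPKM with IL-2 and 47.3 RPKM with IL-21.

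Set directly against IL-2 at 0.5 h, 32 genes (0.29%) were at least 2-fold higher with IL-21 and 24 (0.217%) at least 2-fold higher with IL-2, on a median of -0.08 over all genes. These counts were 68 and 53 with a pseudocount of 0.1 RPKM and 6 and 9 with 5 RPKM, where more genes lay on the IL-2 side. The 36 genes chosen as high with IL-21 favour that library by their choice: their median level was 0.50 higher on the log2 scale than with IL-2, 24 lying above and 12 below, and their medians against the shared control were 1.25 for IL-21 and 1.07 for IL-2. The largest difference in favour of IL-21 was Zfp36, at 140.4 against 37.9 RPKM, a ratio of 3.71 (3.53 to 3.90). Sgk1 was 3.12-fold higher (2.80 to 3.48), and Tiparp, Il10 and Tha1 were 2.83-fold, 2.84-fold and 2.67-fold higher. In favour of IL-2 the largest were Id1 (-2.95), Egr1 (-2.89), Lta (-2.01), Tnf (-1.89) and the EGFR ligand Hbegf (-1.78), which stood at 0.33 RPKM in the control, 0.75 RPKM with IL-21 and 5.01 RPKM with IL-2. The phosphatases Dusp6 (-1.24), Dusp1 (-1.22) and Dusp4 (-1.08) were also on that side, although the whole list of 16 DUSP and Sprouty genes had a median of -0.07, close to that of all genes. So were Spry1 (-1.36), Il4 (-1.25) and the IL-10 receptor Il10ra (35.1 against 79.1 RPKM, with 17.8 RPKM in the control).

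**Figure D5:**
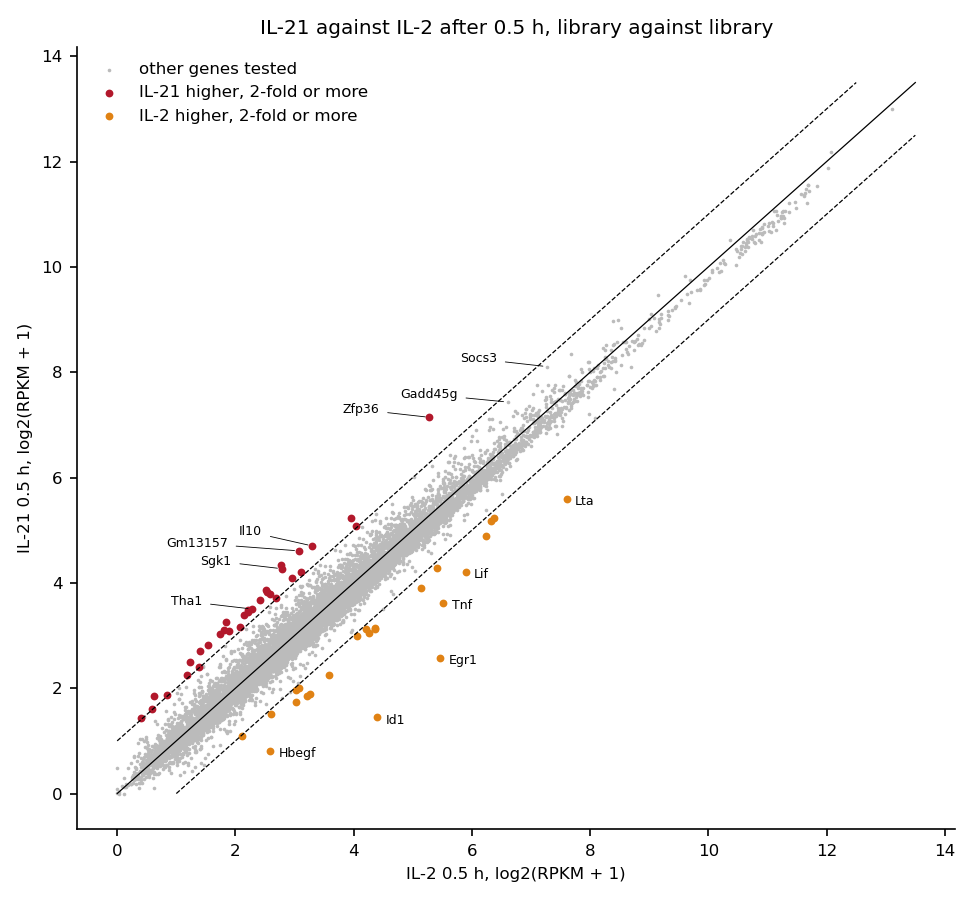
Level after 0.5 h of IL-21 (vertical axis) against level after 0.5 h of IL-2 (horizontal axis), both log2(RPKM + 1), 1 point per gene; the solid line is equality and dashed lines mark 2-fold. Zfp36 lies farthest on the IL-21 side at 1.86, and Id1 at -2.95 and Egr1 at -2.89 farthest on the IL-2 side.

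Many of the genes higher with IL-21 than with IL-2 shared a course over libraries that follows neither cytokine nor time. The 32 were chosen for a high IL-21 and a low IL-2 level at 0.5 h, so only the other libraries bear on this. In 28 of the 32 (87.5%) the IL-21 library at 4 h was below those at 2 and 24 h, which held for 25.3% of all genes; the exceptions were Zfp36, Sgk1, Il10 and Tha1. Gm13157 stood at 10.6 RPKM in the control, 23.4, 19.3, 7.06 and 18.1 RPKM with IL-21 at 0.5, 2, 4 and 24 h, and 7.39 RPKM with IL-2 at 0.5 h. In the later IL-2 libraries, at 2, 4 and 24 h, Gm13157 stood at 17.4, 18.9 and 14.8 RPKM. Gm17066 stood at 3.07, then 7.52, 9.92, 3.36 and 7.26 RPKM. With IL-2 at 0.5, 2, 4 and 24 h Gm17066 stood at 2.70, 8.16, 10.1 and 7.80 RPKM. Gt(ROSA)26Sor, the noncoding transcript of the Rosa26 locus, stood at 5.41, then 13.6, 13.2, 4.11 and 11.2 RPKM, and 4.71 RPKM with IL-2. It overlaps Thumpd3 on the opposite strand, which was level at 14.7 RPKM in the control and 15.3 RPKM with IL-21, and reads of such a pair cannot be told apart if strand was not used in counting. The same course was seen in Gm13212 (11.2 RPKM in the control, 19.4 RPKM with IL-21, 5.85 RPKM with IL-2), Gm4944 (4.42, 8.55 and 2.59 RPKM), Zfp942, Zfp943, Zfp758 and Sh3bgrl (18.8, 36.7 and 14.5 RPKM). Of 268 tested genes with a numbered zinc finger (Zfp) name, 7 were 2-fold above IL-2 (1 of them Zfp36, which does not share the course) and none below. Over all genes 0.29% were above and 0.217% below. The Zfp group was taken up after its members were seen in this comparison, so its count is a description. Its medians were 0.00 against the control and 0.04 against IL-2. Tiparp shares the course only in part. It stood at 4.00 RPKM in the control, then 10.2, 7.25, 5.90 and 7.92 RPKM with IL-21. With IL-2 at 0.5, 2, 4 and 24 h Tiparp stood at 3.61, 3.07, 3.99 and 6.51 RPKM, not above the control before 24 h. The calls of Gm13157, Gm17066 and Gt(ROSA)26Sor follow this course and that of Tiparp does so in part. What sets the libraries concerned apart was not tested.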

How the data were processed

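RNA was measured in 9 libraries, 1 per condition, and the 19 chromatin samples were not analysed here. A stranded kit was applied to total RNA, per the labels' protocols. The use of strand in counting and the annotation's version are not stated in what was used here. The build mm9 and the tools HOMER, SAMtools, TopHat2 2.0.11 and Bowtie 0.12.9 are named, per the submitters' processing notes, without their roles. The authors deposited a whole-number read count and an RPKM value for each of 29543 RefSeq transcripts. In the deposited files RPKM equals the count scaled by transcript length and 1 total per library (29.5 to 44.3 M reads).

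For each of 23222 symbols the transcript whose RPKM averaged highest across libraries was kept, and 752 symbols with transcripts under 200 bases were left out. Genes with at least 1 RPKM in the highest library were compared on log2(RPKM + 1), a scale that understates changes of low genes, and called at 2-fold. Intervals at 95% are exact conditional binomial and cover counting error only, as does the floor of 3 reads for a gene without reads (0.0873 RPKM in 1 kb in the control, 0.0874 with IL-21). Without molecular identifiers, reads cannot be taken as independent molecules. The comparison code was tested on simulated data. Alternative scalings used the deposited counts with edgeR 4.0.16 (TMM, upper quartile) and DESeq2 1.42.0 (median ratio); neither was used for a test. Python 3.11.15, pandas 2.3.3, scipy 1.17.1 and R 4.3.3 were used.

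Named genes were all called genes, up to 4 members of each list with the largest differences, genes of the IL-21 route, the 5 largest differences from IL-2 in each direction and the 3 genes on each side of each limit. Others named were chosen after their values were seen, as were the counts over libraries for genes above IL-2, the Zfp genes and the length classes. The gene lists and members were chosen with earlier results of these data known. RefSeq windows and gene order came from GRCm38.p6, to which 11000 of the 11047 tested genes matched by identifier or symbol. Gene spans in mm9 were not used here. A few genes that the rule would name are not reported here.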

Additional observations from a re-analysis of the deposited data

Results flagged for a closer look

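In 3 genes the difference from the control at 0.5 h of IL-21 was 2-fold or more upward and at a later IL-21 time 2-fold or more downward. Rgs1 was higher at 0.5 h (1.08) and lower at 4 h (-1.84) and 24 h (-1.58). Lta was higher at 0.5 h (1.05) and lower at 4 h (-1.07) and 24 h (-1.47). Rtp4 was higher at 0.5 h (1.15) and lower at 4 h (-1.42), where it stood at 1.06 RPKM, and stood at 5.32 RPKM at 24 h, above its control level of 4.49 RPKM. The difference between times was not tested: there was 1 library per time, and all times share 1 control library.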

How the results depend on the processing

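Counts of calls moved by more than 1.5 times with the pseudocount alone. At 0.1 RPKM 62 genes were higher and 18 lower than the control, and 68 higher and 53 lower than with IL-2. At 5 RPKM these counts were 18, 3, 6 and 9, so that 18 of the 36 higher genes and 3 of the 6 lower ones (Angptl4, Id3 and Rgs16) were no longer called, among them Ccl4, Il24, Ahr, Hlx and Lta. With the higher of the compared libraries required to reach 5 RPKM, 31 and 6 genes were called against the control and 25 and 23 against IL-2, Adora2b, Ahr, Ccl4, Csf2 and Mfsd2a being lost. TMM, median-ratio and upper quartile scaling gave 40, 38 and 37 higher genes and 6 lower, and other transcript choices or no filter gave 36 and 6. All 36 and all 6 were among the calls under each of these scalings, transcript choices and the setting without a filter. Each scaling raised the IL-21 library relative to the control, so a higher call could not be lost by it. Dropping the filter can remove no gene, and only 5 called genes have several transcripts. For the higher genes these settings are therefore no check. None of the 63 single genes followed against the control, or the 10 against IL-2, changed sign under these settings. Medians of 13 of the 42 lists did, from between -0.18 and 0.07 to between -0.15 and 0.04; among them were the FOXO, immediate early, ID and E protein, interferon regulatory factor, MYC, PIM and TGF-beta lists. Leaving out a replicate was not possible with 1 library per condition. No paired analysis was possible because each condition has 1 RNA library and the replicate numbers in the labels belong to chromatin samples. Depth limits low genes most: Ccl4 had 17 reads in the control and Il24 and Adora2b 36 each.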
